A study of Rattus norvegicus with 6 samples.

Results

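The arms of miR-202 and miR-140 were examined in small RNA counts from rat primary sertoli cells, the somatic cells that support germ cells in the seminiferous tubule. Every mature miRNA row named rno-miR-202 or rno-miR-140, after removal of the arm suffix, was taken, which gave 4 rows of 734 mature miRNAs, namely miR-202-5p, miR-202-3p, miR-140-5p and miR-140-3p. The rows were taken by name, and all 4 passed the filter on low counts. There were 3 control samples without 4-nonylphenol (4-NP) and 3 samples treated with 0.5 mM 4-NP, an alkylphenol with estrogen-like action, and the profiles were taken at 24 h. All samples were cultured sertoli cells, at passage P2, enriched by enzyme digestion from testes of Sprague-Dawley rats 5 to 10 days old, and no allele or strain differed between the groups. The sources used here do not say whether the replicates came from separate animals or cultures, so p-values measure the spread between these samples, which may be technical. The mRNAs by which sertoli cells are recognised are not counted in a small RNA library, so the cell type label could not be checked with them.

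A miRNA is cut as a hairpin from a longer transcript, and the duplex left after removal of the loop gives a 5p and a 3p arm, of which 1 is usually kept in the silencing complex and the other is mostly degraded. The kept arm finds its target mRNAs mainly through its seed, the bases 2 to 8 from its 5′ end. SOX9 is the transcription factor that directs supporting cells of the fetal gonad to become sertoli cells. miR-202 is a gonadal miRNA whose gene is activated in the fetal testis downstream of SOX9, and miR-140 is best known from cartilage, where SOX9 drives its expression, and is also found in the fetal testis.

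The 4 mature sequences are shown to identify what was counted, with the seed in capitals. They were read from RefSeq on the rat assembly GRCr8, and which assembly lies behind the counts is not given in the sources used here.
miR-202-5p: uUCCUAUGcauauacuucu
miR-202-3p: aGAGGUAUagcgcaugggaaa
miR-140-5p: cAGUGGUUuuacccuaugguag
miR-140-3p: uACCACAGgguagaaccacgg

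The hairpins are shown with both mature arms in capitals, 5p first, because reads counted under the arms and reads counted as precursor are compared below. Where on a hairpin the precursor reads lay is not given in the sources used here. The miR-202 hairpin of 72 bases lies on the minus strand at chr1:204184345-204184416 of GRCr8, within the span of a long noncoding RNA gene, LOC120099956. The miR-140 hairpin of 99 bases lies on the plus strand at chr19:52375293-52375391, within the span of Wwp2, which encodes a ubiquitin ligase. Whether either lies in an exon or an intron was not analysed here.
miR-202 hairpin: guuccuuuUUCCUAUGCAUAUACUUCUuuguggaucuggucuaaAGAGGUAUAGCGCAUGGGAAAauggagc
miR-140 hairpin: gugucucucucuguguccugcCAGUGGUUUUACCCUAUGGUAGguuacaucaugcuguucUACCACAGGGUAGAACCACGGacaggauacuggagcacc

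The libraries held 20023200 to 23426742 reads on mature miRNAs, of which miR-21-5p took 62.0 to 63.9%. Levels are given as CPM, the reads of a miRNA per 1000000 mature miRNA reads of its sample. A count of 0 allows up to 3 reads, or 0.128 to 0.15 CPM, and such limits cover counting error only because the reads were not collapsed to molecules.

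In each of the 6 samples the order of levels was miR-202-5p, miR-140-5p, miR-140-3p and miR-202-3p. By rank among the 734 mature miRNAs, miR-202-5p stood between place 40 and 58 depending on the sample and miR-140-5p between 58 and 70. miR-140-3p stood between 236 and 246, and miR-202-3p between 322 and 644. A read covers a whole mature miRNA, so length does not enter these comparisons, but unequal ligation of different sequences may.

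**Figure D1:**
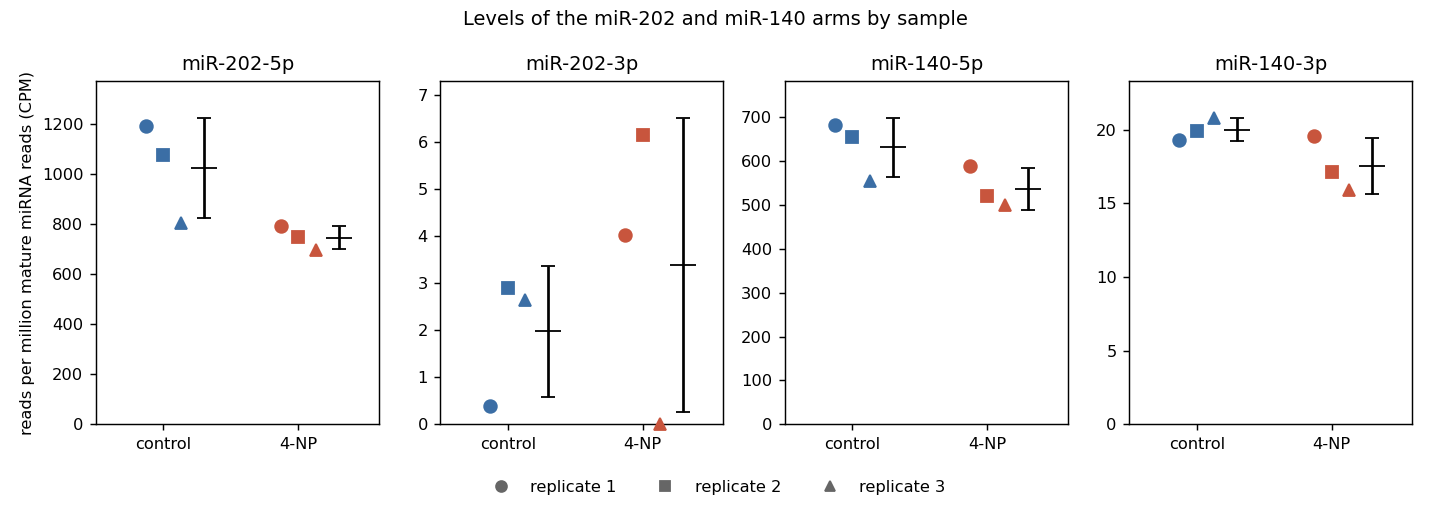
Levels of the 4 arms in CPM, 1 panel per arm with its own axis from 0. Each marker is 1 sample (circle, square and triangle for replicates 1, 2 and 3), and the bar shows the mean and SD of 3 samples. Only in the miR-202-5p panel do the control samples (805 to 1195 CPM) and the 4-NP samples (698 to 792 CPM) not overlap.

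miR-202-5p was lower in the 4-NP samples, but the difference missed the threshold after adjustment. Control replicates 1, 2 and 3 had 1195, 1078 and 805 CPM, from 27988, 24898 and 17934 reads. The 4-NP replicates 1, 2 and 3 had 792, 749 and 698 CPM, from 17519, 15000 and 15291 reads. The groups did not overlap, but control replicate 3 lay 12.9 CPM above the highest treated sample and well below the other controls. The mean was 1026 ± 200.3 CPM without and 746 ± 46.7 CPM with 4-NP (SD, n = 3 each), so the treated mean was 72.8% of the control mean. The difference was tested with edgeR's quasi-likelihood test and is given as log2FC, the fitted log2 of 4-NP over control, with its standard error (SE). For miR-202-5p the log2FC was -0.48 ± 0.16 (SE), with a 95% confidence interval of -0.87 to -0.09. The edgeR p was 0.0234 before and 0.0858 after Benjamini-Hochberg adjustment over the 549 tested miRNAs. The interval is not adjusted for the number of miRNAs tested. Without control replicate 3, the log2FC was -0.62 and the adjusted p was 0.0326 in the same edgeR test, and no other omission of 1 sample brought it under 0.05.

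The other arm, miR-202-3p, had few and uneven reads. Its reads numbered 9, 67 and 59 among control replicates (0.384, 2.90 and 2.65 CPM) and 89, 123 and 0 among 4-NP replicates (4.02, 6.14 and at most 0.137 CPM by the limit of 3 reads). The groups overlapped, and the treated samples spanned both the highest and the lowest values. The log2FC of 0.75 had an SE of 1.24 and a 95% confidence interval of -2.23 to 3.72 (adjusted p = 0.725 in edgeR), so no direction was detectable. Of the 489 mature miRNAs that averaged 20 or more reads, miR-202-3p was the 1 with no read in a sample and at least 50 in another of the same group. 4-NP replicate 3, which had the 0, had 15291 reads of miR-202-5p, close to the 15000 of 4-NP replicate 2. The rule by which reads were given a mature name is not stated in the sources used here, and whether it acted alike in all samples was not tested, so this 0 is a count under the name miR-202-3p.

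miR-140-5p stood at 682, 655 and 555 CPM in control replicates 1, 2 and 3, from 15981, 15129 and 12361 reads. After 4-NP it had 589, 519 and 499 CPM, from 13029, 10391 and 10928 reads. In CPM the groups overlapped, since 4-NP replicate 1 lay above control replicate 3. The edgeR fit scaled these 2 samples further, by factors of 1.048 and 0.947, and overlap on that scale was not analysed here. The means were 631 ± 67.3 and 536 ± 47.1 CPM (SD, n = 3 each), and the log2FC was -0.26 ± 0.13 (SE, edgeR adjusted p = 0.207). Its 95% confidence interval of -0.57 to 0.06 held values from 0.673 to 1.04 times the control level.

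miR-140-3p stood at 19.3, 19.9 and 20.8 CPM in control replicates 1, 2 and 3, from 453, 460 and 463 reads. After 4-NP it had 19.6, 17.1 and 15.9 CPM, from 433, 342 and 349 reads. The groups overlapped through 4-NP replicate 1, while 4-NP replicates 2 and 3 lay below all controls. The log2FC was -0.22 ± 0.13 (SE, edgeR adjusted p = 0.26), with a 95% confidence interval of -0.52 to 0.09. Its control samples varied little, with 20.0 ± 0.721 CPM, against 17.5 ± 1.85 CPM in the treated samples (SD, n = 3 each).

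None of the 4 arms passed an adjusted p of 0.05 in edgeR's quasi-likelihood test, where 20.2% of the 549 tested miRNAs did (41 higher and 70 lower). By an unadjusted p under 0.05 in that test, 1 of the 4 passed, miR-202-5p. The share of all tested miRNAs under this threshold was not analysed here in any fit, so counts by unadjusted p have no background. By unadjusted p, 0 of the 4 passed in edgeR's classic exact test, without control replicate 1, or without any 1 of the 4-NP replicates. Without control replicate 3, 2 of the 4 passed by unadjusted p. DESeq2, limma and edgeR's classic exact test passed 0 of the 4 after adjustment. Among all tested miRNAs, DESeq2 called 58 higher and 72 lower, and the exact test 34 and 67. With limma it was 43 and 76 on log2(CPM + 1), and 41 and 70 on log2(CPM + 0.1). None passed the pair of thresholds used in the study's methods, a change of more than 2-fold either way with p under 0.05, taken here as the p before adjustment, which 15.7% of the tested miRNAs passed. In 1 of the 4 the groups did not overlap in CPM, which lack the further scaling of the fit, against 42.4% of the tested miRNAs. The median absolute log2FC over all tested miRNAs was 0.40, larger than the changes of both miR-140 arms and smaller than that of miR-202-5p.

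**Figure D2:**
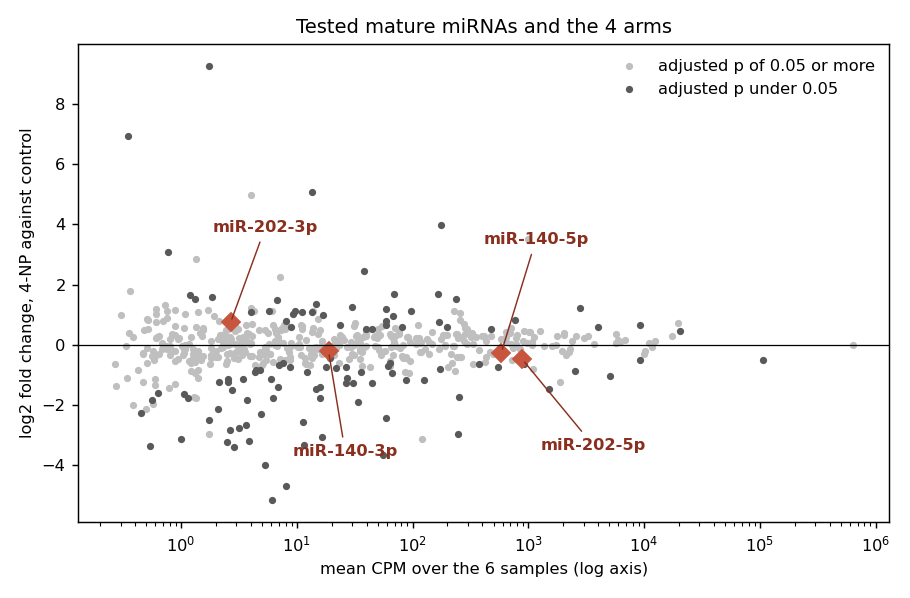
Log2FC (4-NP against control) against mean CPM over the 6 samples on a log axis, for the 549 tested mature miRNAs. Dark points have an adjusted p under 0.05. Diamonds mark the 4 arms, none of them called, which lie between -0.48 and 0.75, a range that also holds called miRNAs.

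The abundant arms were also compared with each other within each sample, a comparison that needs no library size and was chosen after the values were seen. There were 1.75, 1.65 and 1.45 reads of miR-202-5p per read of miR-140-5p in the controls, and 1.34, 1.44 and 1.40 after 4-NP. All treated samples lay below all controls, although control replicate 3 and 4-NP replicate 2 were nearly equal. How often such ratios separate was not analysed here, and among single tested miRNAs the groups did not overlap in 42.4%. The mean ratios were 1.62 ± 0.152 and 1.40 ± 0.0496 (SD, n = 3 each), a log2 difference of -0.21. The exact two-sided permutation test gave p = 0.1, the smallest that 3 samples against 3 allow, so this design cannot place the difference under 0.05.

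Among reads counted under a mature arm, those of both hairpins were almost entirely of the 5p arm. The precursor reads given below, whose place on the hairpin is not known here, do not enter these shares. The 5p share of the reads of both arms was 96.4 to 97.2% for miR-140 in the 6 samples, and over all samples together it was 99.7% for miR-202 and 96.9% for miR-140. Among 138 hairpins compared, 86 gave mostly 5p reads, 5 had a larger 5p share than miR-202 and 35 a larger one than miR-140. Per 3p read of miR-140, the controls had 35.3, 32.9 and 26.7 reads of the 5p arm and the treated samples 30.1, 30.4 and 31.3. The treated values thus fell within the range of the controls. The log2 ratio of 3p to 5p was -4.97 ± 0.21 in the controls and -4.93 ± 0.03 after 4-NP (SD, n = 3 each), a difference of 0.04 (exact two-sided permutation p = 0.8, 1 after adjustment over the 2 hairpins). Without control replicate 1 the difference was -0.05, so its sign depended on that sample.

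The same ratio of miR-202 was set by the uneven 3p reads. It was -9.43 ± 1.82 in the controls and -9.81 ± 4.42 after 4-NP on the log2 scale, with 0.5 reads added to each arm (SD, n = 3 each). The difference of -0.38 was within the spread (exact two-sided permutation p = 1, also after adjustment), and without 4-NP replicate 3 it was 2.16. It was also above 0 without control replicate 2 (0.07) and without control replicate 3 (0.21). In neither hairpin did the groups separate in this ratio, as they did in 32.6% of the 138 hairpins.

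Among the values of these hairpins, the largest tested difference was found not in the mature arms but in the reads that the authors assigned to the hairpin families as precursor. These are reads of the same size-selected library (18 to 30 nt), so they are fragments of a hairpin and not whole precursors, and the rule that separated them from mature reads is not given in the sources used here. The precursor reads of the mir-140 family fell to 14.1% of the control level. They numbered 216, 242 and 195 in the controls (9.22, 10.5 and 8.75 CPM) and 28, 34 and 23 after 4-NP (1.27, 1.70 and 1.05 CPM). The lowest control was thus several-fold above the highest treated sample. The means were 9.48 ± 0.894 and 1.34 ± 0.33 CPM (SD, n = 3 each). In a fit over 738 other small RNAs the log2FC was -2.84 ± 0.24 (SE, edgeR adjusted p = 0.000522), with a 95% confidence interval of -3.41 to -2.27. Of those 738, 22.8% passed an adjusted p of 0.05.

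Of the 177 precursor families counted, 93 were tested. Of these 93, 8 were higher and 13 lower at an adjusted p under 0.05, with a median log2FC of -0.02. By log2FC the mir-140 family was the 8th lowest of the 93, and by p it was at place 2. With scaling factors from the other small RNAs themselves in place of those of the miRNAs, the median of all 738 moved from 0.46 to 0.06 and the log2FC of the mir-140 family was -3.22 (edgeR adjusted p = 0.000475).

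The precursor reads of the mir-202 family were more numerous and differed less. They numbered 4456, 4261 and 3028 in the controls (190, 184.5 and 136 CPM) and 2677, 2244 and 2410 after 4-NP (121, 112 and 110 CPM). The groups did not overlap, and control replicate 3 was again the lowest control, as for miR-202-5p. How often groups separated among the other small RNAs was not analysed here, and among tested mature miRNAs it was 42.4%. The log2FC was -0.59 ± 0.18 (SE, edgeR adjusted p = 0.0631), with a 95% confidence interval of -1.03 to -0.15. It was -0.98 (edgeR adjusted p = 0.0155) with scaling factors from the other small RNAs, so this call depended on the scaling.

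**Figure D3:**
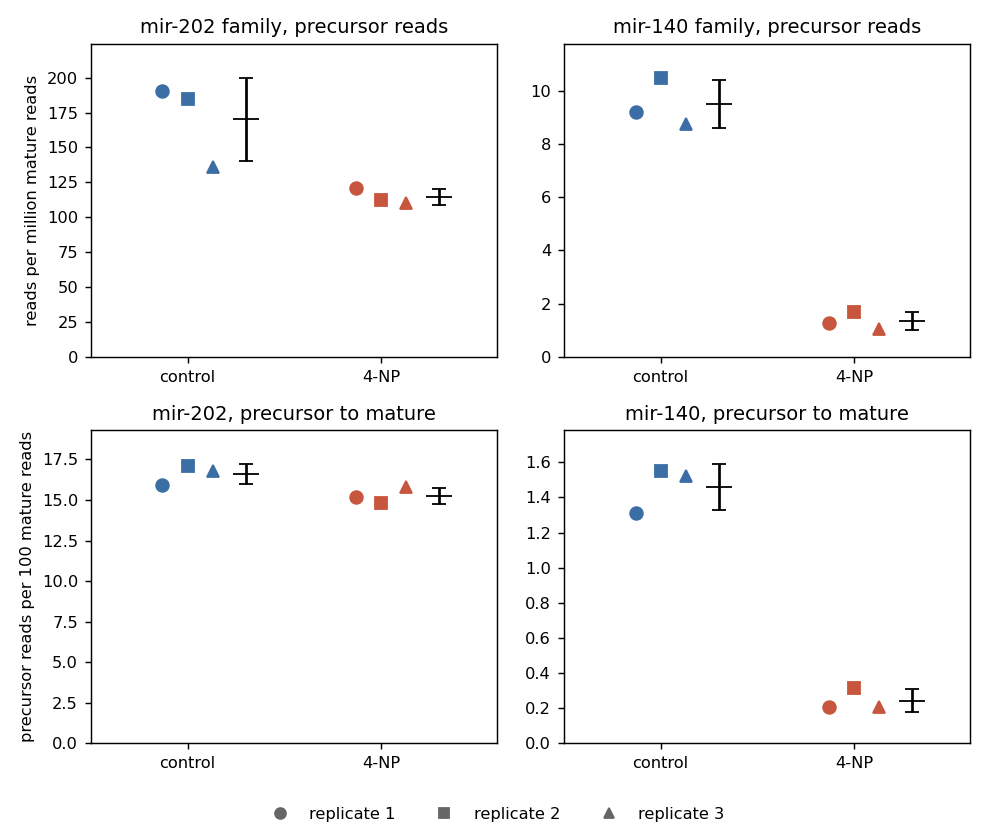
Precursor reads of the mir-202 and mir-140 families in CPM (upper panels) and per 100 reads of their own mature arms (lower panels), each axis from 0. Markers are samples (circle, square and triangle for replicates 1, 2 and 3) and bars are the mean and SD of 3 samples. The mir-140 ratio lies at 1.31 to 1.55 in the controls and 0.204 to 0.317 after 4-NP, while the mir-202 ratio stays between 14.8 and 17.1.

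Set against their own mature reads, the hairpins differed in how precursor and mature reads moved. This ratio was chosen after the values were seen. For miR-140 the controls had 1.31, 1.55 and 1.52 precursor reads per 100 mature reads and the treated samples 0.208, 0.317 and 0.204, a log2 difference of -2.59. For miR-202 there were 15.9, 17.1 and 16.8 in the controls and 15.2, 14.8 and 15.8 after 4-NP, a log2 difference of -0.12. The groups did not overlap for either hairpin, although for miR-202 control replicate 1 and 4-NP replicate 3 were 15.9 and 15.8, and each gave p = 0.1 in the exact two-sided permutation test, the smallest possible (0.1 after adjustment over both). Among 76 precursor families matched by number to mature miRNAs, the groups did not overlap in 38.2%. The difference for miR-140 was the 4th lowest of the 76 and that for miR-202 the 38th.

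Further miRNAs tied to SOX9 were taken from a list, which held miR-145, miR-101a, miR-101b, miR-124 and miR-1247, which are known to target SOX9, and miR-455 and miR-675, which are known from SOX9-dependent cartilage. Of 14 counted arms 10 were tested, and at an adjusted p under 0.05 none was higher and 1 was lower in edgeR, where 20.2% of all tested miRNAs passed. The median log2FC of the 10 was 0.28, against -0.02 over all tested miRNAs. The 1 that fell was miR-145-3p, the less abundant arm of its hairpin, from 52.9 ± 7.0 to 14.5 ± 2.39 CPM (SD, n = 3 each), and its log2FC was -1.88 ± 0.14 (SE, edgeR adjusted p = 0.000278). miR-145 is also in the list of smooth muscle or myoid miRNAs, whose sum was mostly miR-143-3p. That sum was 120596 to 136274 CPM in the controls and 88389 to 96697 CPM after 4-NP. The part of such cells in the value of miR-145-3p was not tested. Of the list tied to SOX9, the most abundant arm was miR-145-5p. It averaged 2318 ± 353 CPM without and 1876 ± 346 CPM with 4-NP, and its log2FC was -0.33 ± 0.14 (SE, edgeR adjusted p = 0.159). The counts of miR-1247-3p were 9, 8 and 9 in the controls and 0 in all treated samples, under the limit for testing.

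A second list held miR-23b, miR-30c and miR-30d, which are known to respond to hormone withdrawal in sertoli cells. The list took rows with exactly these names before the arm suffix, which gave 5 arms, all tested. In edgeR 1 was higher and 1 was lower, against 20.2% of all tested miRNAs that passed, with a median log2FC of -0.04. These values leave out miR-30c-1-3p (log2FC -0.35, edgeR adjusted p = 0.153) and miR-30c-2-3p (log2FC -0.21, edgeR adjusted p = 0.574), whose names carry a further number. miR-30d-5p, the most abundant of them, rose from 3162 ± 95.7 to 4850 ± 332 CPM (SD, n = 3 each), and its log2FC was 0.59 ± 0.10 (SE, edgeR adjusted p = 0.00746). miR-23b-5p, the less abundant arm of its hairpin, fell from 4.66 ± 0.383 to 0.671 ± 0.0189 CPM (SD, n = 3 each), and its log2FC was -2.81 ± 0.19 (SE, edgeR adjusted p = 0.000256). Its partner miR-23b-3p had a log2FC of -0.22 ± 0.10 (SE, edgeR adjusted p = 0.153).

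By sequence, none of the 4 arms shared its full seed with another mature rat miRNA in the reference table. With bases 2 to 7 in place of 2 to 8, miR-202-3p shared GAGGUA with 9 miRNAs, namely the 5p arms of let-7a, let-7b, let-7c, let-7d, let-7e, let-7f, let-7g and let-7i and miR-98-5p, and the other 3 arms shared theirs with none. The let-7 miRNAs are growth-restraining miRNAs of differentiated cells. miR-202-3p and let-7a-5p are shown to set the shared bases side by side, with bases 2 to 8 in capitals.
miR-202-3p: aGAGGUAUagcgcaugggaaa
let-7a-5p: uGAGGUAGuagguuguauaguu

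The 9 arms that share these bases summed to 23535 to 29998 CPM in the controls and 25967 to 29501 CPM after 4-NP, against at most 6.14 CPM for miR-202-3p in any sample. All 9 were tested and none passed an adjusted p of 0.05 in edgeR, with a median log2FC of 0.10. The most abundant of them was let-7i-5p (log2FC 0.17 ± 0.12, SE, edgeR adjusted p = 0.326). In let-7a-5p, 4-NP replicate 3 stood apart from the other treated samples, as it did in miR-202-3p but in the opposite direction. Its reads numbered 75439, 53392 and 53251 without 4-NP and 1929, 4113 and 65192 with it. The limit given for the 0 of miR-202-3p, that assignment of reads to names was not tested, holds for these counts too.

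The miRNAs most like the abundant arms across the 6 samples were found by the root mean square difference of log2(CPM + 1) values, each centred on its own mean, among 487 miRNAs that averaged 20 or more reads. For miR-202-5p these were miR-3120 (0.0772), miR-351-3p (0.116) and miR-409a-3p (0.119). For miR-140-5p they were miR-351-3p (0.0669), miR-154-5p (0.0778) and miR-666-3p (0.0952). miR-3120 stood at 304, 317 and 234 CPM without 4-NP and at 229, 221 and 207 CPM with it, with control replicate 3 the lowest control as in miR-202-5p. Its hairpin lies opposite that of miR-214 in GRCr8, and whether the counting used the strand is not given in the sources used here. Adding 1 compresses the changes of scarce miRNAs such as miR-351-3p, which had 1.05 to 1.79 CPM. With log2(CPM + 0.1), chosen after the values were seen, the order for miR-202-5p was miR-351-3p (0.0607), miR-3120 (0.077) and miR-140-5p (0.134), and miR-409a-3p was at place 13. For miR-140-5p it was then miR-154-5p (0.0787), miR-431 (0.0956) and miR-3120 (0.0966), while miR-666-3p was at place 11 and miR-351-3p at place 27. Of the 5 miRNAs named with log2(CPM + 1), miR-409a-3p alone had an adjusted p under 0.05 in edgeR (0.0363).

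Lists of miRNAs known from other cells that a sertoli cell preparation can hold were summed in each sample. The sums of the smooth muscle or myoid, endothelial, epithelial and erythroid lists did not overlap between the groups, and those of the germ cell, myeloid and striated muscle lists did. Among single tested miRNAs the groups did not overlap in 42.4%, so such separation was common in these data. The sum of the smooth muscle or myoid miRNAs miR-143 and miR-145 was 120596 to 136274 CPM in the controls and 88389 to 96697 CPM after 4-NP. In edgeR 2 of 4 arms were lower at an adjusted p under 0.05, which 20.2% of all tested miRNAs passed. Most of this sum was miR-143-3p (means of 123969 and 89443 CPM). The sum of the endothelial miR-126a arms was 6325 to 7615 and 3234 to 3805 CPM, with 2 of 2 arms lower. That of the germ cell list, miR-34b, miR-34c, miR-449a, and miR-290 to miR-295 (miR-302 was not analysed here), was 153 to 171 and 164 to 199 CPM, with 4 of 7 tested arms higher and 1 lower. The 4 higher arms were those of miR-34b and miR-34c, and most of the sum was miR-449a-5p (means of 123.8 and 105.8 CPM). Every counted arm of miR-290 to miR-295 had a lower mean after 4-NP, including the 1 called lower, miR-292-3p. Of these, only miR-291b and miR-292-3p had more than 10 reads in any sample. The epithelial list summed to 10.7 to 13 and 6.34 to 7.05 CPM, with 2 of 5 lower, and the erythroid list to 11 to 40.3 and 59.1 to 628 CPM, with its 1 tested arm higher. The myeloid list summed to 8.05 to 10.6 and 8.36 to 14.1 CPM and the striated muscle list to 14.5 to 20.0 and 13.4 to 15.4 CPM, with none of 3 tested arms past the threshold in either. No counted member of these lists was without reads in all 6 samples. The part of such cells in the values of miR-202 and miR-140 was not tested, and in bulk samples fewer cells of a type and less RNA per cell cannot be told apart.

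**Figure D4:**
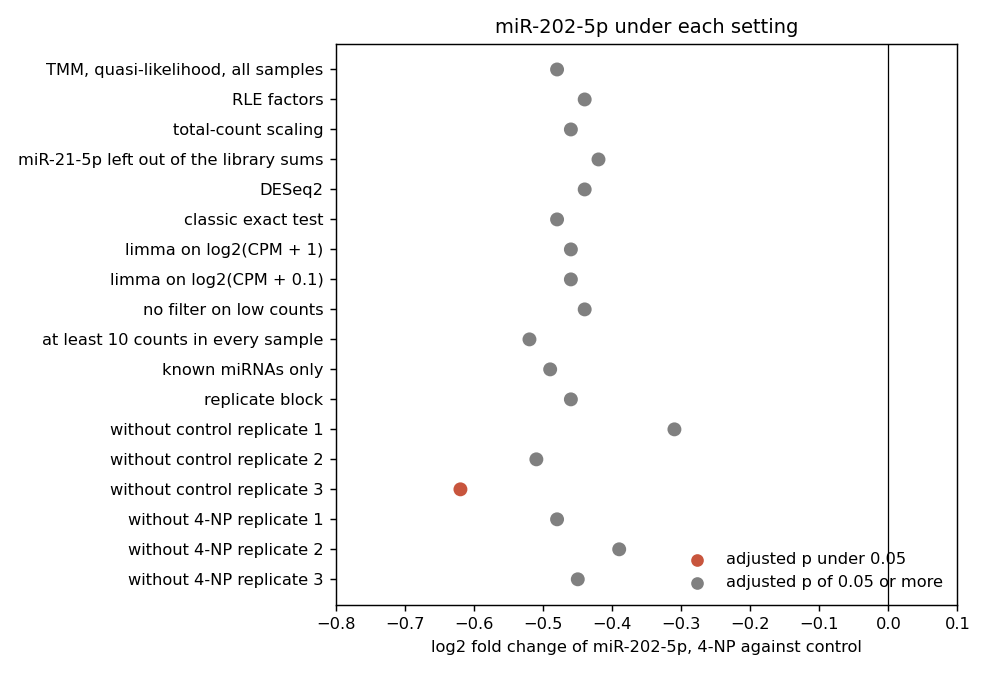
Log2FC of miR-202-5p (4-NP against control) under each scaling, test, filter and omission of 1 sample. Grey points have an adjusted p of 0.05 or more, and the values run from -0.62 to -0.31, with the 1 coloured point (adjusted p of 0.0326) without control replicate 3.

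The lower level of miR-202-5p kept its direction in all 17 alternative fits, with log2FC values of -0.62 to -0.31 and adjusted p values of 0.0326 to 0.31. The fall of the mir-140 precursor reads was called in all 7 of its alternative fits, with log2FC values of -3.22 to -2.73 and adjusted p values of 0.000475 to 0.00546 in edgeR.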

How the data were processed

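The miRNA-Seq counts of 3 control and 3 4-NP samples were used. The authors excised RNA of 18 to 30 nt, ligated adapters with molecular identifiers, sequenced the libraries and deposited raw read counts per small RNA, without normalization. The submitters' processing notes name HISAT2 and DESeq2, and the aligner settings, miRNA database and genome build are not given in the sources used here. A further deposited column per sample, with other values named for the molecular identifiers, entered no test. Columns were matched to samples by group and number.

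Mature counts were scaled by TMM and tested in R 4.3.3 with edgeR 4.0.16 (two-sided quasi-likelihood F test, filterByExpr, common dispersion 0.118), which kept 549 of 734 miRNAs. TMM factors were 0.947 to 1.09. Printed CPM values are scaled to the mature sum alone. Precursor rows were tested among 738 other small RNAs on the TMM scale of the mature counts. Exact permutation tests used SciPy 1.17.1. Replicates of a group differed beyond counting error (chi-square per degree of freedom of 168 or more). Of 675 known mature names, 609 were matched to a RefSeq sequence on GRCr8. Alternatives were RLE factors, total-count scaling, omission of miR-21-5p, DESeq2 1.42.0, limma 3.58.1, edgeR's exact test, other filters, known miRNAs only, a replicate block and omission of each sample. The members, lists and tests were chosen with earlier results of these data known. From each list the text names the called arms (at most 4, by fold change) and the most abundant, and for each abundant arm the 3 miRNAs most like it. miR-1247-3p, let-7a-5p, miR-30c-1-3p, miR-30c-2-3p and the arms of the germ cell list were named after their values were seen. The lists of other cells are otherwise given by sums and counts. The procedure was tested on simulated data with larger changes than those of the 4 arms and a lower dispersion than in these data. That test does not cover changes as small as theirs.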

Additional observations from a re-analysis of the deposited data

How the results depend on the processing

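Of 161 recomputed values, 153 kept their direction and their side of the threshold, or stayed within 1.5 times for counts. The exceptions rest mainly on single samples. miR-202-5p passed the threshold in 1 of 17 alternatives, without control replicate 3, and its log2 fold changes were -0.62 to -0.31 when each sample was omitted. miR-202-3p, which had no value with at least 10 counts in every sample, turned to -0.25 with limma on log2(CPM + 0.1), and ranged from 0.06 to 1.34 with omission of each sample. The 3p to 5p log2 difference of miR-202 ranged from -1.83 to 2.16 with omission of each sample, and that of miR-140 from -0.05 to 0.16. The mir-202 precursor reads passed the threshold with scaling factors from the other small RNAs (-0.98). The cause of these changes was not tested. With few reads (57.8 per sample on average), miR-202-3p was limited by its spread between samples.

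Samples of the same replicate number did not deviate together (correlations of -0.30, -0.27 and -0.02 across miRNAs). Between samples of different number the correlations ran from -0.09 to 0.30, the highest for control replicate 1 and 4-NP replicate 2. Deviations from a group mean sum to 0, so these correlations are not independent. Whether any samples shared a culture or batch was not tested. With the replicate block, the number of higher miRNAs went from 41 to 26, and none of the 4 arms had an adjusted p under 0.05, with log2 fold changes of -0.46 for miR-202-5p, 0.47 for miR-202-3p, -0.25 for miR-140-5p and -0.22 for miR-140-3p.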
